A study of Mus musculus with 8 samples.

Results

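The genes described here are 37 mouse genes of G2/M and mitosis, listed by name for their textbook roles in mitotic entry, the spindle, the kinetochore, the spindle checkpoint, anaphase and cytokinesis. All 37 were among the 55421 gene identifiers of the count table and among the 15137 genes that passed the filter on low counts. Polyadenylated RNA was measured by sequencing 3′ ends in E14 mouse embryonic stem cells of 129/Ola background, which were grown with serum and LIF on gelatin. The KO group lacks the microRNA cluster miR-290-295 and was untreated, and the WT group holds untreated wild-type cells. The siTfap4 group holds KO cells 36 hours after transfection with 5 nM of a siPOOL, a mixture of many small interfering RNAs, against Tfap4. The siNeg group holds KO cells given a negative control siPOOL in the same way, so both siPOOL groups lack the microRNA cluster as the KO group does. Each group has 2 biological duplicates. KO and WT libraries were prepared and sequenced together, and the 4 siPOOL libraries were prepared and sequenced together as a separate set, so that KO and siNeg differ both by set and by transfection. The titles of the KO and WT libraries end in suffixes that the labels do not explain, of which KO replicate 2 and WT replicate 1 share CC, and these were not used as batches. The labels do not say whether the KO cells are a single clone or how many cells were in each stage of the cycle.

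Passage through G2 and mitosis is driven by CDK1 bound to cyclin A2 or a B-type cyclin. CDC25 phosphatases, Polo-like kinases and Aurora kinases switch this activity on, the spindle checkpoint holds anaphase back until every kinetochore is attached, and the anaphase-promoting complex then marks cyclin B and securin for destruction. Most of these genes are transcribed in late S phase, G2 and M. The DREAM complex represses them and B-MYB and FOXM1 activate them, through CHR elements near the start site. Many of their promoters also hold CCAAT elements, which are bound by NF-Y. Mouse embryonic stem cells cycle fast with a short G1 and express these genes at high levels. TFAP4 is a basic helix-loop-helix factor that binds E-boxes, and the microRNAs of the cluster are known for promoting the G1 to S transition in these cells.

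Total counts per library ran from 8326675 to 12726123, lowest in the siTfap4 libraries at 8326675 and 8829051. Duplicates differed by more than counting error in all 4 groups, with a chi-square per degree of freedom of 11.3 in KO, 18.9 in WT, 30.5 in siTfap4 and 37.7 in siNeg. The p-values below therefore rest on the spread between duplicates, pooled over the 4 groups. Tfap4 had 49.0 and 42.1 CPM (counts per 1000000 of the library total, scaled with TMM factors) in KO, 19.7 and 16.4 CPM in WT, 12.4 and 15.8 CPM in siTfap4, and 34.4 and 37.4 CPM in siNeg. By edgeR it was called higher in KO (log2 fold change 1.33, adjusted p = 0.00363) and lower in siTfap4 (-1.35, adjusted p = 0.00365). The 7 microRNA genes of the cluster on the plus strand held 0 counts in all 6 libraries of KO cells and 88 and 39 counts in WT. All 12 stem cell markers were detected in every library. Of the 8 fibroblast markers, Thy1 (6.72 to 48.3 CPM), Pdgfrb (at most 4.65 CPM) and Col1a1 (at most 1.71 CPM) were also detected in every library. Col3a1 and Postn were at 0 throughout.

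In KO cells without the microRNA cluster, 1 of the 37 mitotic genes passed the test, and that was Pttg1, the gene of securin, which was lower than in WT, as were 3.96% of all genes. After Tfap4 knockdown in KO cells, 12 members fell (32.4%), where 11.1% of all genes did, and 1 rose, where 4.36% of all genes did. Among genes at or above the lowest mean level of a member, 16.1% fell. The falls took in Cdk1, the cyclin genes Ccna2 and Ccnb2, 3 of 5 spindle checkpoint genes, the Aurora B kinase and the CENP-A histone. They also took in the cytokinesis regulators Ect2 and Anln, while the 1 rise was Ttk, another checkpoint gene. The CDC25 phosphatases, Plk1, Aurka and most kinetochore genes did not pass. Only the falls of Cdk1, Aurkb, Bub1b and Ect2 held in all 13 alternative fits described below. With a correction for GC of the 3′ ends, 6 members were called lower. The summed level of the 37 members was 6171 and 6259 CPM in siTfap4 and 6734 and 6828 CPM in siNeg. Abundant genes weigh most in this sum. Top2a alone gave 1431 and 1189 CPM of it in siTfap4 and 1000 and 882 CPM in siNeg. In KO the sum was 6676 and 6040 CPM, and in WT 7186 and 7095 CPM. The libraries hold RNA of whole cultures, so fewer cells in G2 and mitosis and less of these RNAs per cell cannot be told apart.

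**Figure D1:**
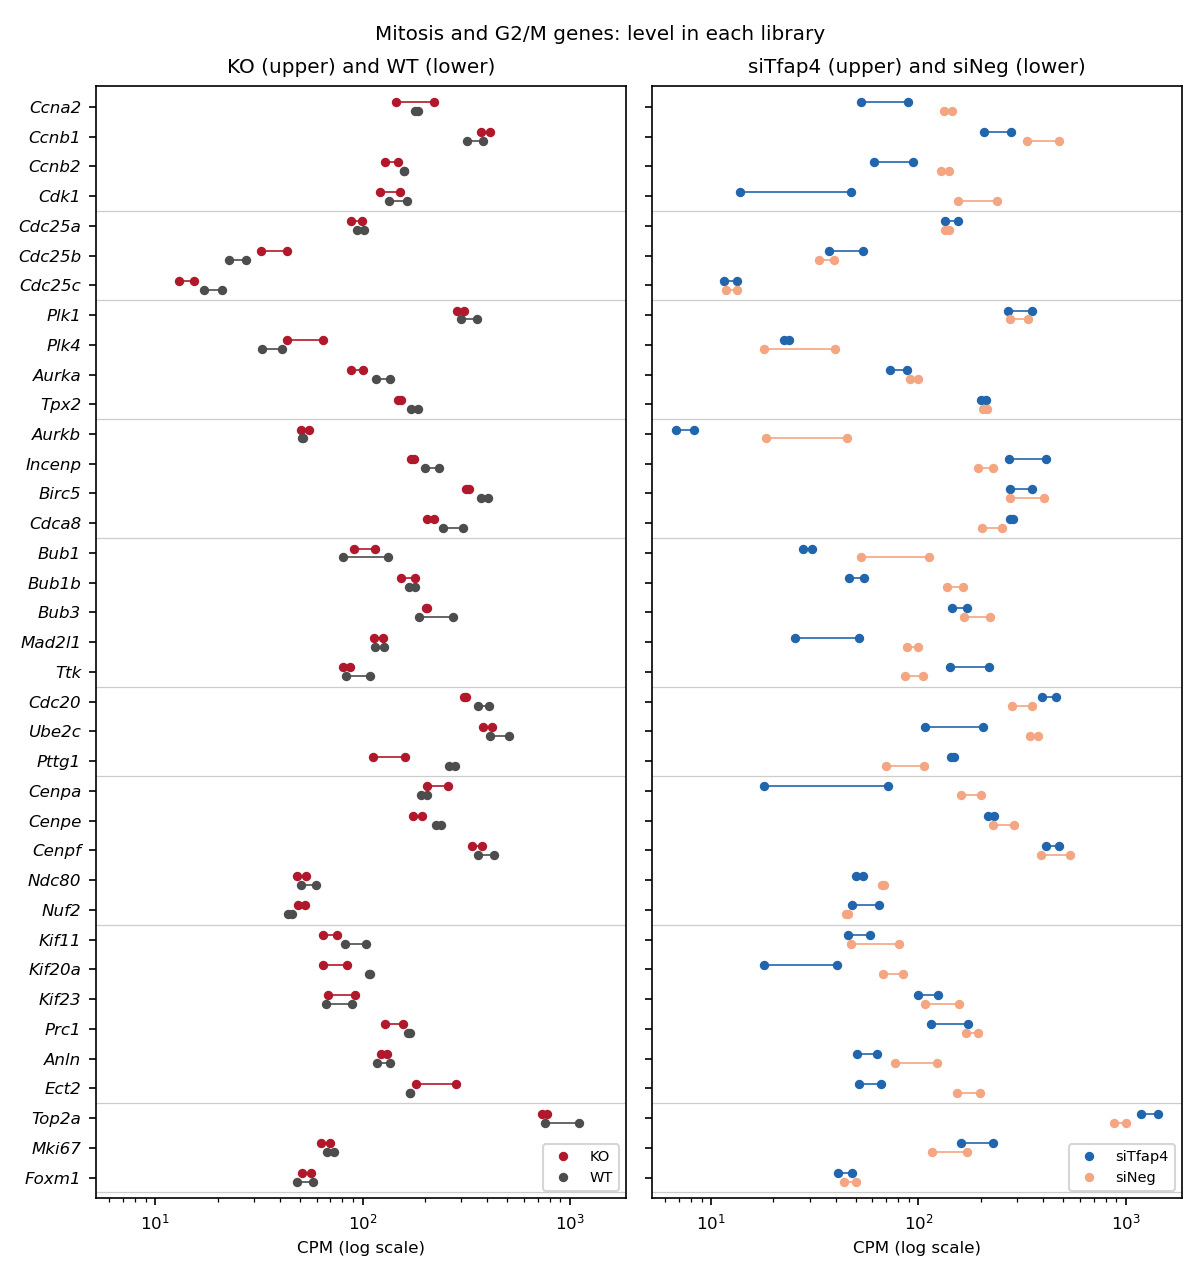
Level of each of the 37 members in each library, in CPM on a log scale, with KO above WT on the left and siTfap4 above siNeg on the right; each point is 1 library, lines join duplicates, and grey rules separate the roles. KO and WT points lie close together for most genes, while Cdk1, Aurkb, Bub1b, Cenpa and Ect2 lie lower in both siTfap4 libraries than in both siNeg libraries.

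Promoter windows are shown for Cdk1, Bub1b and Ect2, whose falls after Tfap4 knockdown held in every alternative fit, and for Ttk, the member that rose. Each window runs from 250 bases before to 50 after the transcription start (RefSeq, GRCm38.p6) and is written 5′ to 3′ on the gene's strand. Capitals mark the words TTTGAA or TTCGAA (the core of a CHR element), CCAAT (bound by NF-Y) and CAGCTG (an E-box of the kind TFAP4 binds), each on either strand, so that TTCAAA and ATTGG are the same words read on the other strand.
Cdk1, chr10:69352863-69353162, minus strand: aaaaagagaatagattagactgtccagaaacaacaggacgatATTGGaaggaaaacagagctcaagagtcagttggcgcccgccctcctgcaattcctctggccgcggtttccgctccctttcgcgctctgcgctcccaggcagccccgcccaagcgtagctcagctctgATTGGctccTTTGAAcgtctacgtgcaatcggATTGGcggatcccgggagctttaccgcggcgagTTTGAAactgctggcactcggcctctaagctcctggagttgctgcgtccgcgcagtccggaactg
Bub1b, chr2:118597961-118598260, plus strand: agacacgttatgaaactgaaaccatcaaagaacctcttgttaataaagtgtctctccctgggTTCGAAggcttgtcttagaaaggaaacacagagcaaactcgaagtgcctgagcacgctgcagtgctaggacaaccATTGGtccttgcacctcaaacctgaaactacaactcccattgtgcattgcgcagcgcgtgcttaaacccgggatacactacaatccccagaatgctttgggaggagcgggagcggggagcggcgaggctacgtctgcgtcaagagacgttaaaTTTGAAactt
Ect2, chr3:27153829-27154128, minus strand: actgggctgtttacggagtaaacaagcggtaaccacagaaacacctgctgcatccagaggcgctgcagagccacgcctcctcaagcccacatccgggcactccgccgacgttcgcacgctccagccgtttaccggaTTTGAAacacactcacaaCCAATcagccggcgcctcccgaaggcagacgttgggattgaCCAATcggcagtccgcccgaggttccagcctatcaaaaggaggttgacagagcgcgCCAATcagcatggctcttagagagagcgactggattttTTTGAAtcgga
Ttk, chr9:83834439-83834738, plus strand: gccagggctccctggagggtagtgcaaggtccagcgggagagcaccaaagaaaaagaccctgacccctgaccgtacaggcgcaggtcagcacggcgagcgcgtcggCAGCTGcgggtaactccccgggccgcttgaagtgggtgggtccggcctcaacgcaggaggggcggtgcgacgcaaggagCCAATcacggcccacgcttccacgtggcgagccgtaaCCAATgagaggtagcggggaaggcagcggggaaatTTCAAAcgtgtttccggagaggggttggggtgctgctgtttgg

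In Cdk1 the CHR-type words began 71 and 15 bases upstream of the start, and CCAAT words 208, 80 and 48 bases upstream. In Ect2 the CHR-type word upstream of the start began at 114 bases and CCAAT words at 96 and 55 bases. Another annotated start of Ect2, not shown, puts that CHR-type word at 138 bases and CCAAT words at 120, 79 and 23 bases upstream. The Ttk window held CAGCTG at 144 bases upstream, which none of the other 3 windows held. Of the 37 members, 30 had a window in the table used here. TTTGAA or TTCGAA stood in 22 of these 30 (73.3%), against 16.3% of the 10552 tested genes with a window, and CCAAT in 23 of 30 (76.7%), against 43.2%. CAGCTG stood in 6 of 30 (20%), against 18.3%. Among the 9 members with a window that fell after Tfap4 knockdown, 8 held a CHR-type word, 7 held CCAAT and 0 held CAGCTG. Among the other 21 members the counts were 14, 16 and 6. These counts describe letters in short windows, and no test was made on them.

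The question of the first comparison is what loss of the microRNA cluster did to these genes. Pttg1 (ENSMUSG00000020415), which encodes securin, the inhibitor of separase, had 112 and 160 CPM in KO cells and 261 and 278 CPM in WT cells. Both KO libraries lay below both WT libraries. The log2 fold change was -0.99 ± 0.25 (SE), with an adjusted p of 0.0208 by edgeR's quasi-likelihood test with Benjamini-Hochberg adjustment over the 15137 genes. The call ended without KO replicate 1 (-0.76, adjusted p = 0.287), without WT replicate 1 (-1.03, adjusted p = 0.0716) and without WT replicate 2 (-0.94, adjusted p = 0.101), all 3 in the same quasi-likelihood test. Across all genes, 3.96% were called lower and 5.99% higher in KO, so 1 of 37 lower and 0 of 37 higher is no more than the share of all genes. The median log2 fold change of the members was -0.14 and that of all genes -0.01, with 26 members below 0 and 11 above. Both KO libraries were below both WT libraries for 13 members, where 28.6% of all genes had such a pattern, and above them for 4 members, where 28.9% did. With no adjustment and a threshold of 0.05, edgeR would call 1 member higher, Cdc25b, and DESeq2 and limma-voom with adjustment called 0 higher as edgeR did.

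Cdc25b, a phosphatase that activates CDK1 in late G2, had 32.4 and 43.3 CPM in KO and 27.5 and 22.7 CPM in WT (log2 fold change 0.59 ± 0.27, adjusted p = 0.203). Plk4, the kinase that starts centriole duplication, had 64.7 and 43.1 CPM in KO and 41 and 32.6 CPM in WT (0.55 ± 0.32, adjusted p = 0.332). Ect2, which activates RHOA at the cleavage furrow, had 282 and 181 CPM in KO and 169 and 169 CPM in WT (0.45 ± 0.26, adjusted p = 0.309). These were the 3 largest positive values, none passed edgeR's quasi-likelihood test, and in each both KO libraries stood above both WT libraries. Kif20a, a kinesin of the central spindle, had 84 and 64.2 CPM in KO and 109 and 108 CPM in WT (-0.55 ± 0.30, adjusted p = 0.295). Cdc25c, the phosphatase that acts on CDK1 at mitotic entry, had 13 and 15.3 CPM in KO and 17.1 and 20.9 CPM in WT (-0.43 ± 0.28, adjusted p = 0.389). After Pttg1 these had the lowest values, and neither passed. All 5 checkpoint genes lay between -0.19 and -0.02, and Cdk1 was at -0.13 ± 0.40.

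The summed endoderm markers stood at 25.3 and 23.3 CPM in KO and 162 and 173 CPM in WT, with 5 of the 8 tested called lower, and the fibroblast markers at 11.8 and 22.4 CPM in KO and 30.9 and 54.6 CPM in WT, with 2 of the 3 tested called lower. Col1a2, at 0.325 CPM in WT replicate 1, was at 0 in both KO libraries, and so was Afp. The part of these marker differences in the values of Pttg1 or the other members was not tested.

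The cluster's 3′ arms include 5 microRNAs whose seed (bases 2 to 8, in capitals, RefSeq, GRCm38.p6) begins with AAGUGC. They are shown as examples of the microRNAs that the KO cells lack. For miR-292a the sequences read here held the 5′ arm alone, so its 3′ arm was not looked at.
miR-290a-3p: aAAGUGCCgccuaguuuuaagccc
miR-291a-3p: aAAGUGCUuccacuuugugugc
miR-291b-3p: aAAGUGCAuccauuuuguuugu
miR-294-3p: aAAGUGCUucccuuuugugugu
miR-295-3p: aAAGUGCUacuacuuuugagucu

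The complement of the shared seed bases, GCACTT, was looked for on the sense strand of each gene's longest annotated 3′ UTR among its protein-coding transcripts. It stood in 10 of the 37 members (27%), whose median 3′ UTR had 799 bases. Of all tested genes with a 3′ UTR, at a median of 1155 bases, 33.1% held it. The shares were not adjusted for this difference in length. Each of the 3 members with the highest KO values held it with a preceding A, as AGCACTT, which pairs with the full seed of miR-291a-3p, miR-294-3p and miR-295-3p. The stretches around it, with the word in capitals, read as follows in GRCm38.
Cdc25b, chr2:131198080-131198085, plus strand: ctcgctggtcaGCACTTgctgctgggca
Plk4, chr3:40816815-40816820, plus strand: ttatttttataGCACTTgtgtctgataa
Ect2, chr3:27098331-27098336, minus strand: actttgaattaGCACTTggtaaagttgt

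Mad2l1 also held AGCACTT, and its log2 fold change in KO was -0.02. The 10 members with GCACTT had a median KO log2 fold change of 0.00, with 5 above 0, and the 27 without it a median of -0.20, with 6 above 0. The sites of the 3 genes were looked up after their values were known, so this is a description.

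The question of the second comparison is what Tfap4 knockdown did in cells without the cluster, where Tfap4 stands higher than in WT. Of the 37 members, 12 were called lower (32.4%), against 11.1% of all genes, and 1 was called higher, against 4.36%. Members are abundant genes, and abundant genes are called more often. Among the 7611 genes with a mean at or above the lowest of any member, 14.6 CPM, 16.1% were called lower and 6.12% higher. Both siTfap4 libraries lay below both siNeg libraries for 15 members (29.3% of all genes) and above them for 7 members (28.9% of all genes). The median log2 fold change was -0.25 for the members and 0.01 for all genes, and single members ran from -2.69 to 0.92.

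**Figure D2:**
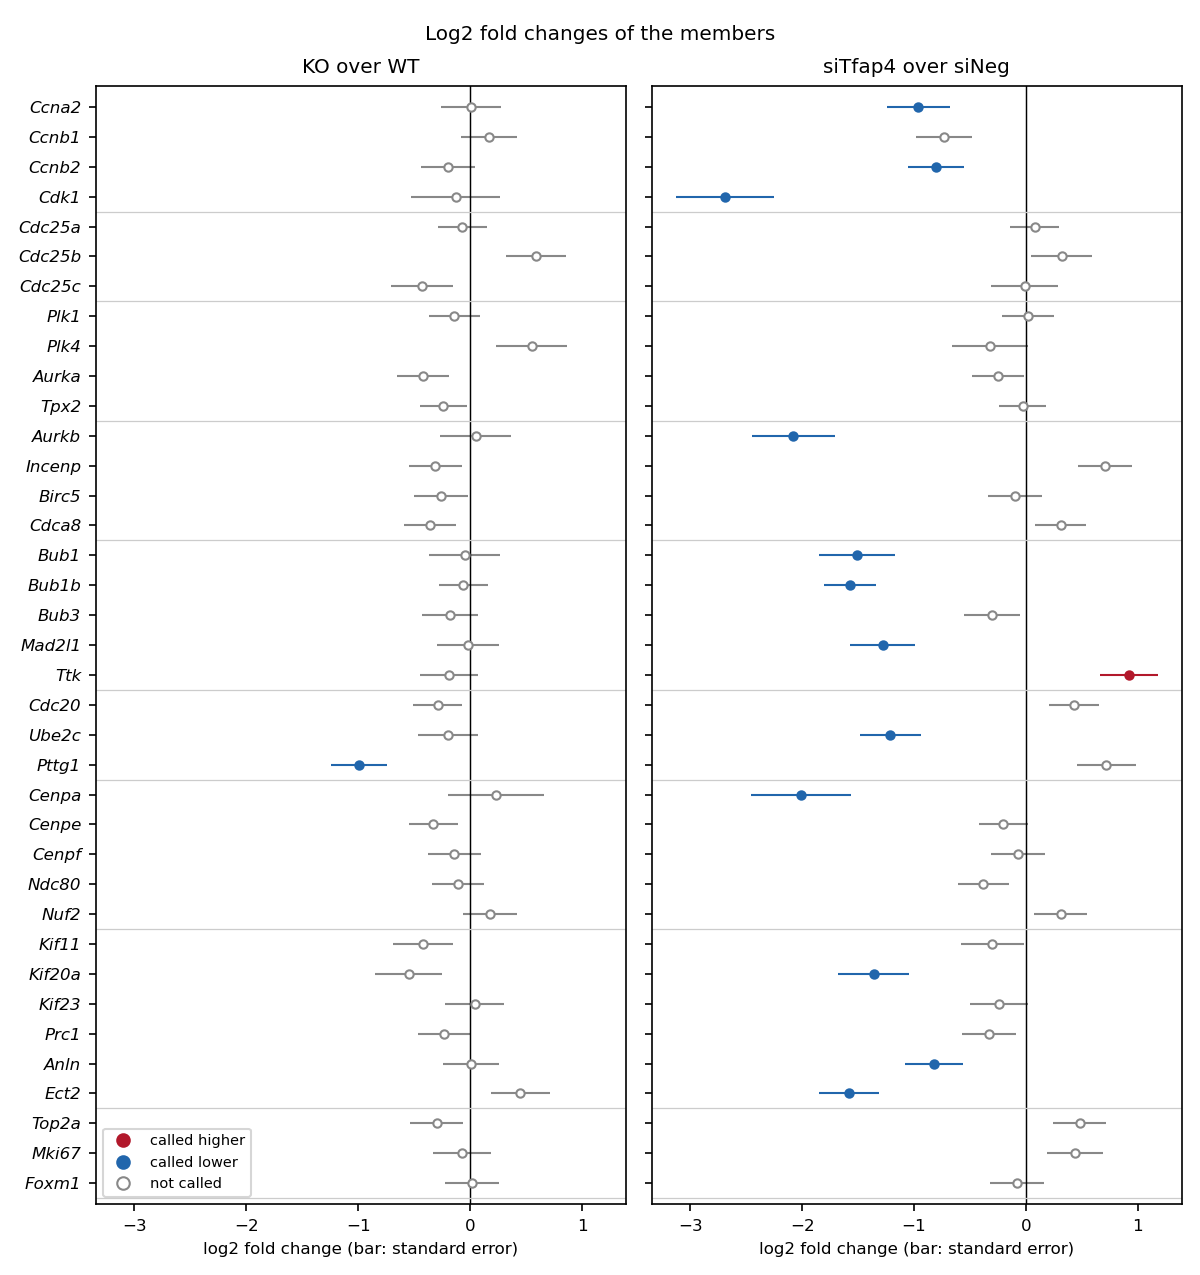
Log2 fold change of each member with its standard error, KO over WT on the left and siTfap4 over siNeg on the right; blue points were called lower, red higher, and open points did not pass an adjusted p of 0.05. The single call in KO is Pttg1 at -0.99, and the siTfap4 values spread from Cdk1 at -2.69 to Ttk at 0.92.

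Of the 4 genes of CDK1 and its cyclins, 3 were called lower. Cdk1 (ENSMUSG00000019942, chromosome 10, 69335146 to 69352938, minus strand), the kinase that drives mitotic entry, had 13.8 and 47.4 CPM in siTfap4 and 156 and 240 CPM in siNeg. In untreated KO it had 152 and 121 CPM and in WT 163 and 134 CPM, so the siTfap4 libraries were the 2 lowest of the 8. The log2 fold change was -2.69 ± 0.44, a 6.44-fold lower level, with an adjusted p of 0.00183 by edgeR's quasi-likelihood test. The siTfap4 duplicates themselves differ, on 108 and 402 counts, and without siTfap4 replicate 1 the value was -2.06 (adjusted p = 0.00472, same test) and without siTfap4 replicate 2 it was -3.84. Ccna2, cyclin A2, had 53.1 and 89.6 CPM in siTfap4 and 146 and 133 CPM in siNeg (-0.96 ± 0.28, edgeR adjusted p = 0.027). Ccnb2, cyclin B2, had 61.3 and 93.9 CPM in siTfap4 and 129 and 140 CPM in siNeg (-0.80 ± 0.25, edgeR adjusted p = 0.038). In both cyclins the siTfap4 and siNeg libraries do not overlap. Both calls ended without siTfap4 replicate 1 (Ccna2 -0.64, Ccnb2 -0.52), without siNeg replicate 1 (Ccna2 -0.89, Ccnb2 -0.86) and without siNeg replicate 2 (Ccna2 -1.03, Ccnb2 -0.73), with edgeR adjusted p-values up to 0.268 and 0.292. Ccnb1, cyclin B1, was at 244 ± 52 CPM in siTfap4 and 405 ± 102 CPM in siNeg (SD, n = 2 each) with a log2 fold change of -0.73 and did not pass (edgeR adjusted p = 0.0565), although it did without siTfap4 replicate 2 (-0.96, adjusted p = 0.0296).

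The CDC25 phosphatases, the Polo-like kinases and Aurka with Tpx2 did not pass. Cdc25a, Cdc25b and Cdc25c had log2 fold changes of 0.08, 0.32 and -0.01. Cdc25b had 53.8 and 37.2 CPM in siTfap4 and 33.3 and 39.4 CPM in siNeg, with overlapping groups, and Cdc25c had 11.6 and 13.4 CPM in siTfap4 and 11.8 and 13.4 CPM in siNeg. Plk1, the kinase with the broadest role in mitosis, was at 312 ± 58.5 CPM in siTfap4 and 307 ± 44 CPM in siNeg (0.02 ± 0.23). Aurka, the kinase of the spindle poles, and its activator Tpx2 were at -0.25 ± 0.23 and -0.03 ± 0.21. Plk4 had 22.4 and 23.9 CPM in siTfap4 and 39.8 and 18.1 CPM in siNeg (-0.32 ± 0.34), where the siNeg duplicates lie on either side of the siTfap4 pair. Standard errors of 0.21 to 0.34 on the log2 scale limit what these 7 values can show.

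The chromosomal passenger complex corrects faulty attachments and steers cytokinesis, and its 4 genes went separate ways. Aurkb (ENSMUSG00000020897, chromosome 11, 69045647 to 69051664, plus strand), its kinase, had 6.75 and 8.26 CPM in siTfap4 and 45.2 and 18.5 CPM in siNeg. The untreated cells held 55.3 and 50.6 CPM in KO and 51.1 and 51.4 CPM in WT, so siNeg replicate 2 was already well below every untreated library. The log2 fold change was -2.08 ± 0.37 (edgeR adjusted p = 0.00147), on 53 and 70 counts in siTfap4 and 527 and 191 counts in siNeg. Without siNeg replicate 1 the value came to -1.30 (adjusted p = 0.0325, same edgeR test). Incenp, the scaffold of the complex, had 415 and 274 CPM in siTfap4 and 193 and 229 CPM in siNeg (0.71 ± 0.24, edgeR adjusted p = 0.0589), a value that did not pass although both siTfap4 libraries were the higher ones. It passed without siTfap4 replicate 2 (0.98, adjusted p = 0.0119, same test). Birc5 (survivin) was at -0.10 ± 0.24 and Cdca8 (borealin) at 0.31 ± 0.23.

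The spindle checkpoint had calls in both directions, 3 lower and 1 higher among 5 genes. Bub1b (ENSMUSG00000040084, chromosome 2, 118598211 to 118641591, plus strand) encodes BUBR1, a subunit of the mitotic checkpoint complex. It had 46.5 and 54.7 CPM in siTfap4 and 164 and 137 CPM in siNeg, beside 179 and 154 CPM in KO and 180 and 168 CPM in WT. Its duplicates were close in every group, and at -1.57 ± 0.23 it had the smallest adjusted p of the members, 0.000387 by edgeR's quasi-likelihood test. Bub1, a kinase of the outer kinetochore, had 27.8 and 30.7 CPM in siTfap4 and 113 and 52.7 CPM in siNeg (-1.51 ± 0.34, edgeR adjusted p = 0.0083). Mad2l1, which encodes MAD2, had 25.4 and 52 CPM in siTfap4 and 99.9 and 88.6 CPM in siNeg (-1.28 ± 0.29, edgeR adjusted p = 0.00788). The groups do not overlap in either gene, yet both calls ended without siTfap4 replicate 1 (Bub1 -1.44, Mad2l1 -0.86) and without siNeg replicate 1 (Bub1 -0.85, Mad2l1 -1.19), with edgeR adjusted p-values up to 0.158 and 0.0979. Ttk (ENSMUSG00000038379, chromosome 9, 83834689 to 83872389, plus strand) encodes MPS1, the kinase at the top of the checkpoint. It had 220 and 142 CPM in siTfap4 and 105 and 86.5 CPM in siNeg (0.92 ± 0.26, edgeR adjusted p = 0.0248). The siTfap4 libraries were the 2 highest of the 8 for Ttk, since KO held 86.5 and 80.8 CPM and WT 82.9 and 109 CPM. Its call ended without siTfap4 replicate 1 (0.57, adjusted p = 0.272), without siNeg replicate 1 (1.06, adjusted p = 0.0818) and without siNeg replicate 2 (0.79, adjusted p = 0.116), all in the same edgeR test. Bub3, the partner that BUB1 and BUBR1 bind, was at -0.30 ± 0.25 and did not pass.

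At the anaphase-promoting complex, Ube2c, its E2 enzyme, had 108 and 204 CPM in siTfap4 and 345 and 376 CPM in siNeg (-1.21 ± 0.27, edgeR adjusted p = 0.00823). The call ended without siTfap4 replicate 1 (-0.82, adjusted p = 0.106, same test), and 65.5% of the last 200 bases of Ube2c also occur in other genes, so its counts are uncertain. Cdc20, the activator of the complex, was at 429 ± 44.8 CPM in siTfap4 and 318 ± 49.8 CPM in siNeg (0.43 ± 0.22) and did not pass. Pttg1 had 143 and 149 CPM in siTfap4 and 70 and 106 CPM in siNeg (0.72 ± 0.26, edgeR adjusted p = 0.0658), which missed the threshold while both siTfap4 libraries were higher. Without siNeg replicate 2 it passed (1.06, adjusted p = 0.0311, same test). For Pttg1 the 2 comparisons share no library, and the KO value over WT was negative while the siTfap4 value over siNeg was positive.

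At the centromere, Cenpa, the histone that marks centromeric chromatin, had 18 and 71.7 CPM in siTfap4 and 161 and 200 CPM in siNeg (-2.01 ± 0.45, edgeR adjusted p = 0.0128). The siTfap4 duplicates differ on 141 and 608 counts, and the value was -1.33 without siTfap4 replicate 1 and -3.33 without siTfap4 replicate 2, called both times. The other 4 members did not pass: Cenpe (a kinetochore motor) was at -0.20, Cenpf at -0.07, Ndc80 at -0.38 and its partner Nuf2 at 0.31. More than 50% of the 3′ end of Cenpf and of Nuf2 recurs in other genes, as it does for Tpx2.

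In cytokinesis all 6 members had negative values and 3 passed. Ect2 (ENSMUSG00000027699, chromosome 3, 27097222 to 27153878, minus strand) had 51.6 and 66.2 CPM in siTfap4 and 199 and 154 CPM in siNeg (-1.58 ± 0.27, a 3-fold lower level, edgeR adjusted p = 0.000947). Kif20a had 18.1 and 40.7 CPM in siTfap4 and 67.2 and 84.7 CPM in siNeg (-1.36 ± 0.32, edgeR adjusted p = 0.00899). Anln, which encodes anillin, a scaffold of the contractile ring, had 63.2 and 50.6 CPM in siTfap4 and 123 and 77.6 CPM in siNeg (-0.82 ± 0.26, edgeR adjusted p = 0.0423). None of the 3 genes overlaps between the groups. The Kif20a call ended without siTfap4 replicate 1 (-0.90, adjusted p = 0.117) and without siNeg replicate 2 (-1.19, adjusted p = 0.06), and Kif20a overlaps Cdc23 on the other strand, from which its reads cannot be told apart where the strand setting is not known. Cdc23 was itself called lower in siTfap4 (-0.95, edgeR adjusted p = 0.0318). Ccna2 overlaps Exosc9, Ube2c overlaps Tnnc2 and Ect2 overlaps Gm25152 on the other strand, with the same limit. The Anln call ended without siTfap4 replicate 1 (-0.99, adjusted p = 0.107), siTfap4 replicate 2 (-0.67, adjusted p = 0.138) and siNeg replicate 1 (-0.45, adjusted p = 0.337), all in edgeR's quasi-likelihood test. Kif11, Kif23 and Prc1, which build and bundle the spindle, had values from -0.33 to -0.24.

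Top2a, the topoisomerase that untangles sister chromatids, was at 1310 ± 171 CPM in siTfap4 and 941 ± 83.6 CPM in siNeg (0.48 ± 0.24), and Mki67, the Ki-67 proliferation marker, at 195 ± 50 CPM in siTfap4 and 144 ± 37.6 CPM in siNeg (0.44 ± 0.25). Foxm1, an activator of many of these genes, was at -0.08 ± 0.24. None passed. Mki67 also differed between the control groups of the 2 sets, with a mean of 144 CPM in siNeg and 66.5 CPM in KO, a log2 ratio of 1.11 that was not tested because set and transfection cannot be told apart. Plk4 had the lowest such ratio, -0.90, with 28.9 ± 15.3 CPM in siNeg and 53.9 ± 15.2 CPM in KO.

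The members that fell had AT-rich 3′ ends, and fold changes of all genes in this comparison moved with base composition. The median GC of the last 100 transcript bases was 28.5% for the 12 members called lower, 36% for the other members and 37% for all genes. For the 1674 genes called lower in siTfap4 it was 29%, so the low GC was not particular to the members. Over 15081 genes the log2 fold change of siTfap4 over siNeg had a Spearman correlation of 0.41 with this GC, and over the 37 members 0.53, where genes are not independent points. For KO over WT it was -0.02 over all genes and -0.20 over the members. Duplicates also differed along GC, taken as replicate 1 minus replicate 2. In siNeg the correlation was -0.31 over all genes and -0.51 over the members. In siTfap4 it was 0.18 over all genes and 0.17 over the members. In KO it was -0.06 and -0.57, and in WT -0.09 and 0.19. With each library corrected for its GC trend, 6 members were called lower and 3 higher, while 8.14% of all genes were lower and 4.08% higher. Cdk1 (-2.71, adjusted p = 0.00296), Aurkb (-1.48, adjusted p = 0.00669), Bub1b (-1.27, adjusted p = 0.00172), Mad2l1 (-1.04), Kif20a (-1.28) and Ect2 (-1.08, adjusted p = 0.00922) stayed lower in the same edgeR test. Ccna2 (-0.67), Ccnb2 (-0.62), Bub1 (-0.91), Ube2c (-0.72), Cenpa (-1.51) and Anln (-0.19) no longer passed, and Pttg1 (0.94) and Top2a (0.89) joined Ttk (0.96) as higher.

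**Figure D3:**
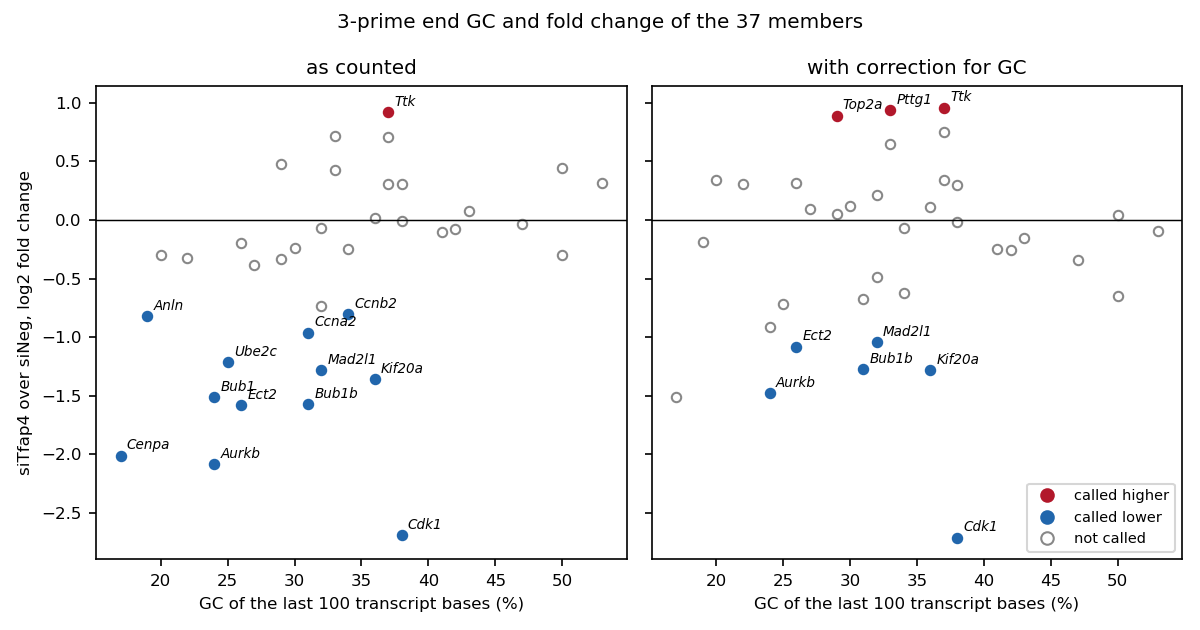
Log2 fold change of siTfap4 over siNeg against the GC percent of the last 100 transcript bases for the 37 members, as counted on the left and with the GC correction on the right; filled points passed an adjusted p of 0.05. Cenpa, at 17% GC, lies at -2.01 as counted and -1.51 after correction without a call, while Cdk1, at 38% GC, lies at -2.69 and -2.71.

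Under the 13 alternative fits for this comparison, 4 of the 13 calls held every time, those of Cdk1, Aurkb, Bub1b and Ect2. The fit to the 4 siPOOL libraries alone ended those of Ccnb2 (adjusted p = 0.0772), Ttk (0.0545), Cenpa (0.0772) and Anln (0.0713), that without a filter ended Cenpa (0.163), and limma-voom ended Anln (0.0504). The replicate block (-0.72, adjusted p = 0.0337) and the fit without a filter (-0.77, adjusted p = 0.0381) added Ccnb1 as lower, and DESeq2 added Ccnb1 as lower and Incenp and Pttg1 as higher. Leaving out single libraries gave between 5 and 14 called members. With siTfap4 replicate 1 left out, 5 remained of the 13 (Cdk1, Aurkb, Bub1b, Cenpa and Ect2), and 7 remained without siNeg replicate 1. In these fits the calls over all genes also fell, to 499 and 732 against 2334 with all libraries.

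**Figure D4:**
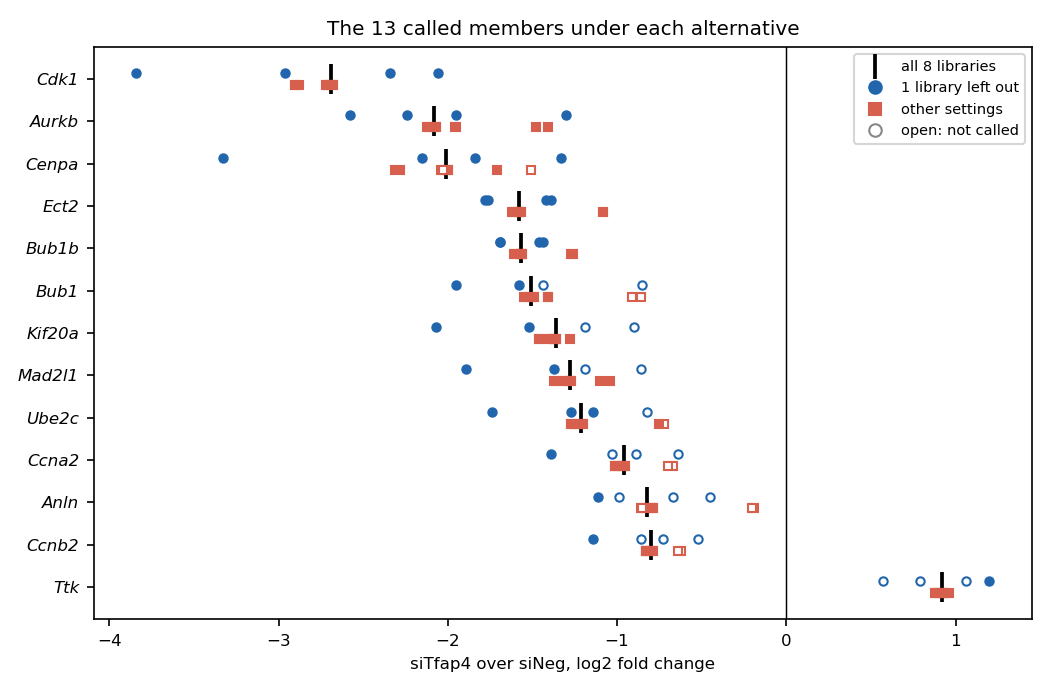
Log2 fold change of siTfap4 over siNeg for the 13 called members with all 8 libraries (black bars), with 1 library left out (circles) and in the other alternative fits (squares); open symbols did not pass an adjusted p of 0.05. All symbols of Cdk1, Aurkb, Ect2 and Bub1b are filled, and the direction is the same in every fit for all 13 genes.

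Other genes of mitosis were read from 6 lists with 119 genes in all, every one tested. After Tfap4 knockdown 25 of them were called lower (21%) and 7 higher, with a median log2 fold change of -0.16 beside 0.01 for all genes. Of all genes 11.1% were called lower and 4.36% higher, and of those at the members' level 16.1% and 6.12%, so the counts of lower kinetochore and condensin genes below are near or under the shares called lower. In KO over WT 1 was lower (Kif20b, -1.06, adjusted p = 0.0201) and 1 higher (Sass6, 1.17, adjusted p = 0.00921), both by edgeR. Mitotic kinases and regulators had 7 of 19 lower, among them Bora (-1.51), a cofactor of PLK1 activation, and Cdk7 (-1.44), a CDK-activating kinase. Genes of the anaphase-promoting complex and its regulators split, 6 of 18 lower, such as Cdc26 (-2.35) and Espl1 (separase, -1.20), and 3 higher. Of 35 centromere and kinetochore genes 4 were lower and 3 higher. Mis18a, which helps load CENP-A, had 6.16 ± 5.29 CPM in siTfap4 and 54 ± 2.08 CPM in siNeg (SD, n = 2 each), a log2 fold change of -3.11 (edgeR adjusted p = 0.000129). Of 25 spindle genes 5 were lower and 1 higher. Gtse1, a microtubule-binding protein of G2 and mitosis, had the lowest value at -4.37 (edgeR adjusted p = 0.00021). It had 4.56 ± 1.4 CPM in siTfap4 and 94.5 ± 61.1 CPM in siNeg (SD, n = 2 each), so its siNeg duplicates differed widely. Condensin and chromosome genes had 1 of 12 lower (Ncaph, -2.37) and cytokinesis genes 2 of 11 lower (Cep55, -1.13, and Sept9, -1.26).

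The falls after Tfap4 knockdown were not confined to mitotic genes. Of 26 genes of G1/S and replication, 8 were called lower (30.8%) and 3 higher, beside the 11.1% lower and 4.36% higher of all genes, with Mcm4, a subunit of the replicative helicase, at -2.50, Fen1 at -1.99 and Rrm2 at -1.96. Of 9 tested CDK inhibitors and pocket proteins 4 were lower and 1 higher, and the one that rose was Cdkn1a, which encodes p21, at 304 ± 20.4 CPM in siTfap4 and 150 ± 13.2 CPM in siNeg (SD, n = 2 each, log2 fold change 1.02, edgeR adjusted p = 0.0076). The summed stem cell markers were 4280 and 4506 CPM in siTfap4 and 5886 and 5507 CPM in siNeg, with 2 of 12 lower and 2 higher. Pou5f1 (1.02) and Lin28a (0.81) were called higher and Nanog and Dppa5a lower by edgeR. Nanog had 79.8 and 179 CPM in siTfap4 and 412 and 316 CPM in siNeg, and Dppa5a 3.82 and 9.32 CPM in siTfap4 and 387 and 493 CPM in siNeg. Endoderm markers summed to 56.8 and 36.4 CPM in siTfap4 and 39.7 and 29.2 CPM in siNeg, and fibroblast markers to 9.94 and 7.67 CPM in siTfap4 and 13.6 and 11.4 CPM in siNeg, and the smallest adjusted p in either list was 0.0708 (Sox7, edgeR). The part of these marker differences in the siTfap4 libraries in the values of the mitotic genes was not tested.

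By sign, the 2 comparisons were opposite no more often over these genes than over all genes. Of the 37 members, 48.6% had opposite signs in KO over WT and in siTfap4 over siNeg, and of all genes 51.6% did. The 2 sets of log2 fold changes had a Spearman correlation of -0.37 over the members and -0.05 over all genes. Genes are not independent points, and the difference was not tested. Pttg1, the single call in KO, was not among the 13 members called after Tfap4 knockdown.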

How the data were processed

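The authors deposited integer counts per gene for 8 libraries of QuantSeq 3′ mRNA reads. The submitters' processing notes name Trim Galore and the build GRCm38. Not given in the sources used here are the version of Trim Galore, the aligner, the counting tool, whether it used strand, and its annotation. Symbols came from GENCODE M21 and covered 55154 of 55421 identifiers. Genes were filtered with filterByExpr, scaled with TMM factors and tested with edgeR 4.0.16 in R 4.3.3 by a robust quasi-likelihood fit of 4 group means to all 8 libraries (4 residual degrees of freedom), with Benjamini-Hochberg adjustment over 15137 genes and a threshold of 0.05. CPM values were computed here from the counts. Standard errors were derived from the log2 fold change and its F statistic. The fit was also run on simulated counts, which gave each gene the same spread in all 4 groups. The duplicates here differed more in the siPOOL groups, so that run cannot show how well a pooled spread serves them.

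Alternatives were edgeR with RLE size factors, DESeq2 1.42.0 (its own size factors, Wald test), limma 3.58.1 voom, the legacy fit and no filter. Others were 4 libraries alone, a replicate block, and a lowess correction (span 0.3) for GC of the last 100 transcript bases. The block and the correction were also fitted together, and each library was left out in turn. A 3′ end was called uncertain where more than 50% of its last 200 bases lay in words of 31 bases that occur in other genes. Members with full values are those called in either comparison or among the 3 largest rises or falls. Genes, lists and search words were chosen with earlier results of these data known.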

Additional observations from a re-analysis of the deposited data

How the results depend on the processing

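Duplicates of 2 limit every call. Leaving out single libraries gave 610 to 857 called genes in KO over WT, against 1506, and 0 to 1 called members. In siTfap4 over siNeg it gave 499 to 2987 genes, against 2334, and 5 to 14 members, against 13. The lone library of a group was then assumed to vary like the others. No other alternative moved these 4 counts by 1.5 times or more, and every called member kept its direction in the 13 alternatives of its comparison. Replicate numbers are shared by the groups. Over all genes, deviations of same-numbered libraries correlated at -0.06 (KO and WT) and 0.13 (siTfap4 and siNeg), with only 2 pairs each. Over the 37 members the correlations were -0.05 (KO and WT) and 0.33 (siTfap4 and siNeg). With the replicate block 1337 genes and 1 member were called in KO over WT and 2064 genes and 14 members in siTfap4 over siNeg. With the block and the GC correction together it was 12 members, 4 higher and 8 lower. DESeq2 called 16 members in siTfap4 over siNeg, voom 12, and the 4 libraries alone 9.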
